A study of Mus musculus with 6 samples.

Results

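The 31 genes described here encode laminin chains, the linkers that join laminin to the rest of the basement membrane, and the integrin chains through which cells other than leukocytes hold on to matrix. They were taken by gene symbol from a list of names. That rule uses no measured value, but the list was chosen with earlier results of these data known. The members comprise 5 laminin alpha, 3 beta and 2 gamma chains, 4 linkers, 11 integrin alpha chains and 6 integrin beta chains. All 31 were among the 41786 symbols of the count tables, and all 31 passed the filter on low counts. The lesions came from a mouse model of endometriosis in which uterine tissue is grafted to the peritoneal wall. Niclosamide-treated recipients received 200 mg/kg of the drug orally each day for 3 weeks, and vehicle-treated recipients received vehicle for the same time. In both groups the graft was uterus of a 6-week-old B6-GFP positive female donor, the recipient was an 8-week-old wild-type female of the C57BL/6 strain in a matched stage of the estrous cycle, treatment began 3 days after grafting, and lesions were taken in diestrus. Each group had 3 RNA-seq libraries. Vehicle 1 is a pool of RNA of 4 mice, whereas the other 5 libraries stand for a single mouse each, so the spread of the vehicle group rests on 2 single animals and a pool.

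A laminin is a cross-shaped trimer of an alpha, a beta and a gamma chain that polymerises into the sheet on which epithelial, endothelial, muscle and Schwann cells rest. Nidogens and the heparan sulfate proteoglycans perlecan and agrin tie that sheet to the collagen IV network and to growth factors. Integrins are pairs of an alpha and a beta chain that span the cell membrane, bind laminin, collagen or proteins with an RGD sequence such as fibronectin outside the cell, and couple through talin and vinculin to actin inside. In the uterus these genes serve the glands and luminal epithelium, the stroma, the vessels and the myometrium, and adhesion of shed endometrium to the peritoneum is thought to depend on integrins.

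Total counts were 31050619 to 33606591 in the niclosamide libraries and 27797121 to 34797000 in the vehicle libraries. Levels are given as CPM, the read count of a gene relative to its library size after TMM scaling, and, for comparisons between genes, as CPM per kilobase of exon (RPKM). The uterine transcription factor gene *Hoxa10* was present in every library, at 55.2, 62.5 and 334 CPM in niclosamide 1 to 3 and at 113, 155 and 206 CPM in vehicle 1 to 3. Summed levels of uterine epithelium and skeletal muscle markers differed more within the niclosamide group than within the vehicle group. The summed level of 12 uterine epithelium markers was 780, 6238 and 1723 CPM in niclosamide 1 to 3, against 3433 to 6883 CPM in the vehicle libraries. That of 12 skeletal muscle markers was 32122, 785 and 11295 CPM in niclosamide 1 to 3, against 4431 to 11021 CPM in the vehicle libraries. None of these 24 markers was at 0 in any library. The summed level of 10 endothelium markers did not spread more widely with niclosamide. It was 630, 491 and 640 CPM in niclosamide 1 to 3, against 543, 586 and 788 CPM in vehicle 1 to 3. In such bulk tissue, fewer cells of a type and less RNA per cell cannot be told apart.

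No member passed the test. With edgeR's quasi-likelihood test and Benjamini-Hochberg adjustment over all 17364 genes tested, 0 of 31 members had an adjusted p under 0.05, as did 0 genes in all (0%). At an unadjusted p under 0.05, 6 members were lower in niclosamide-treated lesions (19.4% of the members, against 3.55% of all genes) and 0 were higher (against 3.37% of all genes). The 6 were *Itga8*, *Lama1*, *Itga10*, *Itga5*, *Hspg2* and *Itga9*. In either direction, 6.92% of all genes had such a p. In 7 members, the same 6 and *Lamb2*, every niclosamide library lay below every vehicle library, which is 22.6% of the members, against 6.37% of all genes. In 0 members did every niclosamide library lie above (against 5.9% of all genes), and in either direction the groups were apart in 12.3% of all genes. Of the 31 members 24 had a log2 fold change below 0, against 46.3% of all genes. The member median was -0.25, against 0.02 over all genes. Because the list was chosen with earlier results of these data known, these shares are description only. DESeq2 called 1 member, *Itga10* (adjusted p = 0.032), among calls for 1.22% of the genes to which it gave an adjusted p, and limma-voom called 0. Without niclosamide 2 the unadjusted p was under 0.05 in 16 members (against 10.1% of all genes), the groups were apart in 19 (against 27.1%), and the member median was -0.55. Without niclosamide 3 the groups were apart in 11 members (against 27.3%), and without niclosamide 1 the median was -0.15.

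**Figure D1:**
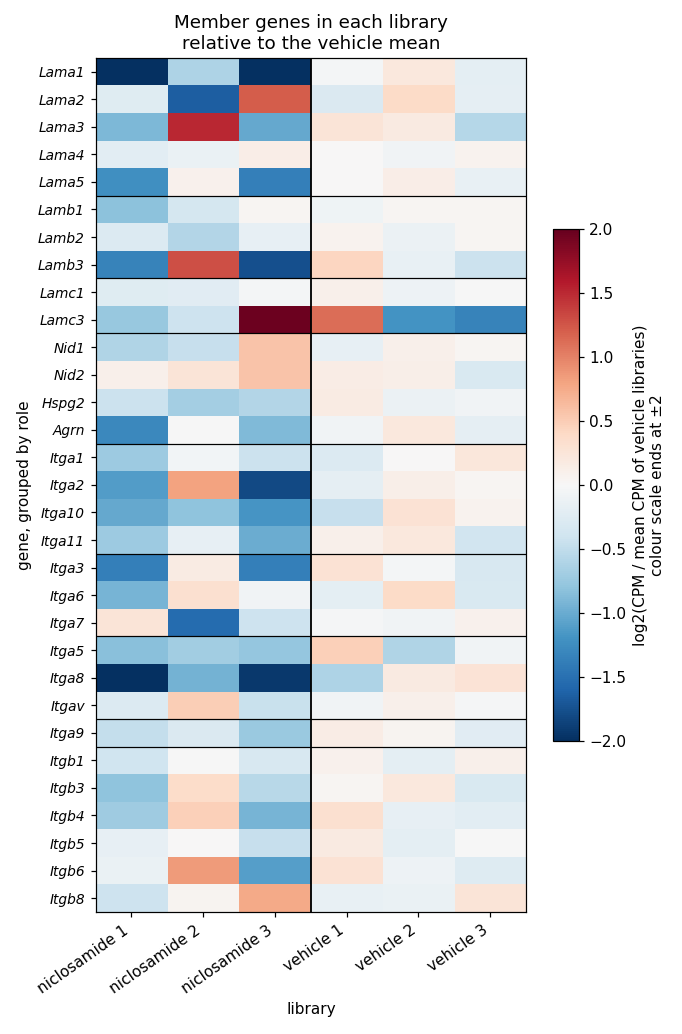
Each cell shows a member gene (rows, grouped by role between the horizontal lines) in a library (columns, niclosamide left of the vertical line), as the log2 ratio of its CPM to the mean of the 3 vehicle libraries. *Itga8*, *Itga10* and *Lama1* are blue in all 3 niclosamide columns, while several rows, such as *Lama3* and *Lamb3*, are red in niclosamide 2 and blue in niclosamide 1 and 3.

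**Figure D2:**
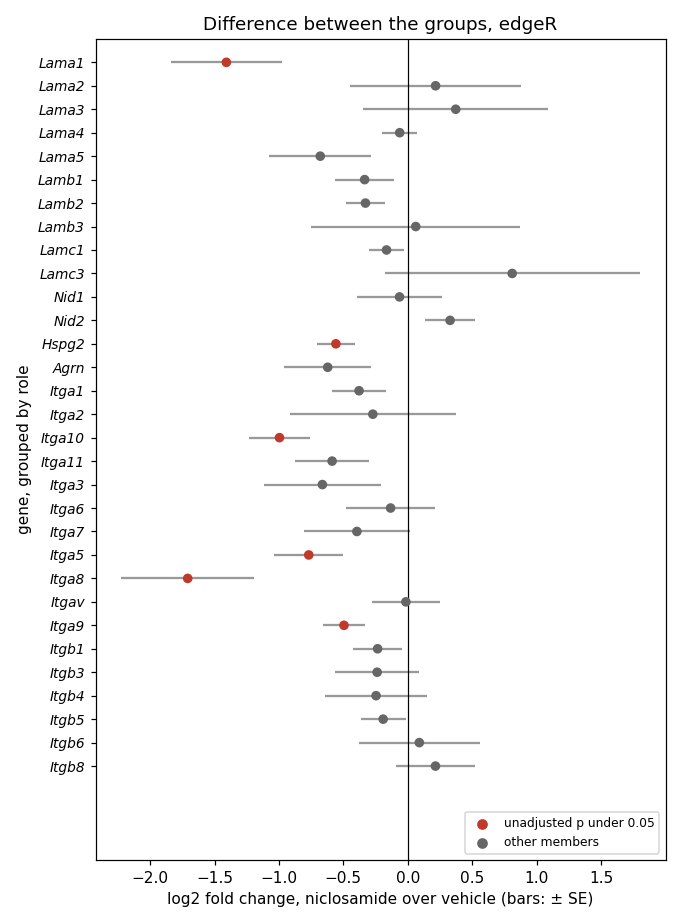
Points are log2 fold changes of the 31 members, niclosamide over vehicle, by edgeR, with bars of ± 1 SE; red points have an unadjusted p under 0.05. The 6 red points all lie below 0, and *Itga8* lies lowest at -1.71.

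The 7 members without overlap fell into a receptor set and a matrix set. *Itga8* encodes the partner of integrin beta 1 that binds nephronectin and is expressed by smooth muscle and mesenchymal cells. It stood at 32.8, 126 and 64.0 CPM in niclosamide 1 to 3, against 159, 276 and 294 CPM in vehicle 1 to 3. The highest niclosamide value was below the lowest vehicle value, that of the pooled library, and the log2 fold change was -1.71 ± 0.51 (SE; edgeR adjusted p = 0.62). *Itga5* encodes the chain of the classical fibronectin receptor. Its levels were 130, 143 and 135 CPM in niclosamide 1 to 3, and 322, 153 and 220 CPM in vehicle 1 to 3. The niclosamide values were close together, and those of the vehicle group spread over a range that began just above them. The log2 fold change was -0.77 ± 0.27 (SE; edgeR adjusted p = 0.65), and -0.46 without vehicle 1. The groups of *Itga9*, whose product binds tenascin-C and other ligands, lay nearer to each other, with 80.0, 91.1 and 66.9 CPM in niclosamide 1 to 3 and 124, 116 and 96.0 CPM in vehicle 1 to 3. Its log2 fold change was -0.50 ± 0.16 (SE; edgeR adjusted p = 0.65).

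*Itga10*, a collagen-binding chain best known from cartilage, was a gene of low level with a steady difference. It had 9.28, 10.8 and 8.30 CPM in niclosamide 1 to 3, against 13.8, 23.0 and 19.8 CPM in vehicle 1 to 3. The log2 fold change was -0.996 ± 0.24 (SE), and its adjusted p ran from 0.032 by DESeq2 to 1.00 over the 13 alternatives, 0.56 being edgeR's value with all libraries. *Lama1*, the alpha chain of the laminin of the early embryo and of some adult epithelia, had 4.52, 12.6 and 4.85 CPM in niclosamide 1 to 3, against 18.9, 22.5 and 17.1 CPM in vehicle 1 to 3. Its niclosamide 2 value stood well above those of the other 2 niclosamide libraries, though still below every vehicle value (log2 fold change -1.41 ± 0.43 SE; edgeR adjusted p = 0.62). *Hspg2* encodes perlecan, the large heparan sulfate proteoglycan of nearly all basement membranes. Here the libraries of each group were close together, with 267, 225.7 and 240 CPM in niclosamide 1 to 3 and 403, 333 and 343 CPM in vehicle 1 to 3. Its log2 fold change was -0.56 ± 0.15 (SE; edgeR adjusted p = 0.60). *Lamb2*, the beta chain of laminins at vascular and neuromuscular sites, had 110, 89.0 and 119 CPM in niclosamide 1 to 3 and 140, 124 and 137 CPM in vehicle 1 to 3. Its groups were apart by a small margin, and its unadjusted p was 0.064 (log2 fold change -0.33 ± 0.15 SE).

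**Figure D3:**
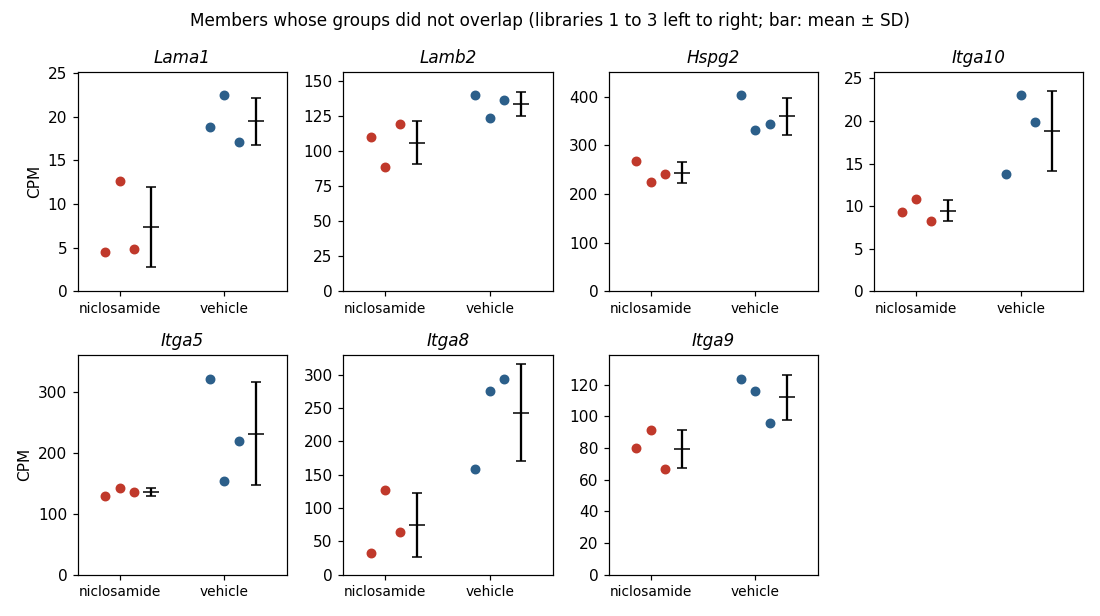
Points are the CPM of each library for the 7 members whose groups did not overlap, niclosamide left and vehicle right in each panel, with libraries 1 to 3 side by side and the mean ± SD beside them. All axes start at 0; in each panel the highest niclosamide point lies below the lowest vehicle point, and the means are 74.3 and 242.9 CPM for *Itga8* and 106 and 133 CPM for *Lamb2*, niclosamide and vehicle.

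In 8 of 10 smooth muscle markers every niclosamide library lay below every vehicle library, against 6.37% of all genes. The groups overlapped in *Des* and *Myocd*. All 10 had a log2 fold change below 0 (median -1.27), against 46.3% of all genes. Of the 10, 7 had an unadjusted p under 0.05 (against 3.55% of all genes for lower levels), and none was at 0. Their summed level was 3049, 2245 and 5693 CPM in niclosamide 1 to 3, against 9511, 6717 and 8762 CPM in vehicle 1 to 3. Of 6 pericyte markers 5 were below 0, with sums of 353, 265 and 367 CPM in niclosamide 1 to 3, against 368, 438 and 473 CPM in vehicle 1 to 3. Their part in the values of *Itga8*, *Itga5*, *Itga9*, *Itga10*, *Hspg2*, *Lamb2* and *Lama1* was not tested.

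The bases just upstream of 4 of these genes, taken from RefSeq promoter windows, are shown. All 4 had lower levels in all niclosamide libraries. So did *Itga9*, *Lamb2* and *Lama1*, which are not shown, so lower levels alone did not pick the 4. Niclosamide is described as an inhibitor of STAT3, NF-kB and Wnt signalling, so the STAT motif TTCNNNGAA and the TCF/LEF motif CTTTGAA or CTTTGAT were searched, together with the GC box GGGCGG and the CArG box of smooth muscle genes, on both strands. An NF-kB motif was not searched. Capitals mark matches. The sequences are RefSeq's on build GRCm38.p6, each read 5′ to 3′ on the gene's strand and holding only bases upstream of the exons in the count files: chr2:12301997-12302194 (minus strand) for *Itga8*, chr3:96645334-96645583 (plus strand) for *Itga10*, chr15:103366792-103367041 (minus strand) for *Itga5* and chr4:137468553-137468763 (plus strand) for *Hspg2*. The windows end at the start of the counted gene, except that of *Itga5*, which lies farther upstream.
Itga8: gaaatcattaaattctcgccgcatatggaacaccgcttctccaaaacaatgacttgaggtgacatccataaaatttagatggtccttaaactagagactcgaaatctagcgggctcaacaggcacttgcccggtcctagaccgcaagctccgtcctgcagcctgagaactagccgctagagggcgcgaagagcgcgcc
Itga10: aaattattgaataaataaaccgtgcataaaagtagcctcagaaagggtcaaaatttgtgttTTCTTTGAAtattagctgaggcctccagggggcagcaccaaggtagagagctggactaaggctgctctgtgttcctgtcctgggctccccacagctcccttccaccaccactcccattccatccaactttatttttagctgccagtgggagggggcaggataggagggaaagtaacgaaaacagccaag
Itga5: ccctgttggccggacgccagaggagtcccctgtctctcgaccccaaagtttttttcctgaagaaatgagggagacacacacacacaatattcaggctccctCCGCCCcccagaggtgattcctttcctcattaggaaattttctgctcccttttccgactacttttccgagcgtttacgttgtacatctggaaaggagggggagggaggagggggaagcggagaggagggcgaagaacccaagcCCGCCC
Hspg2: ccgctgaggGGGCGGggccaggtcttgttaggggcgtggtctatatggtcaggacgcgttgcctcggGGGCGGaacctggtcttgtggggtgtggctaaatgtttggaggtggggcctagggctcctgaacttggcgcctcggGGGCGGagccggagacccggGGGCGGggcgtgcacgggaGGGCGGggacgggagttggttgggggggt

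*Itga10* held 1 STAT match, TTCTTTGAA, which contains the TCF/LEF match CTTTGAA on the same strand, so these are not separate sites. *Itga5* held 2 GC boxes, both on the other strand and so read as CCGCCC, and *Hspg2* held 5, while none of the 4 motifs was found in the *Itga8* window. A promoter window, of which the first 250 bases were searched, was listed for 21 of the 31 members. For these counts the 250 bases were not cut at the counted exons, which they overrun in *Itga8* and *Hspg2*. Members were counted by gene, with a match in any of its windows, whereas the share over all is by window. The GC box was found in 9 of 21 members and in 32.7% of all 32851 windows. The STAT motif was found in 2 of 21 (*Itga10* and *Lamb2*) and in 7.02% of all windows, the TCF/LEF motif in 2 of 21 (*Itga1* and *Itga10*) and in 7.48%, and the CArG box in 2 of 21 (*Itgb6* and *Lama2*) and in 1.47%. A match is a string of letters and was not tested as a binding site.

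Of the 10 laminin chains 6 had a log2 fold change below 0. Among the alpha chains, *Lama4*, the chain of vascular and mesenchymal laminins, was the most abundant per length and differed least between the groups. It had 109, 115 and 138 CPM in niclosamide 1 to 3 and 126, 120 and 132 CPM in vehicle 1 to 3 (log2 fold change -0.06 ± 0.14 SE). Per length it averaged 19.9 ± 2.58 RPKM with niclosamide and 20.8 ± 1.01 RPKM with vehicle (SD, n = 3 each). *Lama5*, the main alpha chain of mature epithelial and vascular basement membranes, came next at 8.25 ± 4.96 RPKM with niclosamide and 13.2 ± 1.23 RPKM with vehicle. It stood at 65.2, 161 and 59.2 CPM in niclosamide 1 to 3, against 153, 167 and 138 CPM in vehicle 1 to 3. Thus niclosamide 2 was among the vehicle values and the other 2 niclosamide libraries were well below them (log2 fold change -0.68 ± 0.40 SE).

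*Lama2* and *Lama3* differed far more between niclosamide libraries than between the groups. *Lama2*, the chain of skeletal muscle and Schwann cell basement membranes, had 29.4, 11.2 and 80.8 CPM in niclosamide 1 to 3, against 28.4, 45.3 and 30.8 CPM in vehicle 1 to 3. The highest and the lowest of the 6 values were both from niclosamide libraries, and the log2 fold change of 0.22 ± 0.66 (SE) was smaller than its error. *Lama3* encodes the alpha chain of the laminin that anchors epithelia. It had 15.8, 84.3 and 14.6 CPM in niclosamide 1 to 3, against 35.2, 33.6 and 19.9 CPM in vehicle 1 to 3. For *Lama3*, niclosamide 2 lay above all vehicle values, and the other 2 niclosamide libraries lay below them (log2 fold change 0.37 ± 0.72 SE).

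The beta and gamma chains of widespread laminins were steadier. *Lamb1*, the beta chain of most embryonic and stromal laminins, had the highest level of the beta chains, with 132, 183 and 240 CPM in niclosamide 1 to 3 and 220, 239 and 240.6 CPM in vehicle 1 to 3. Niclosamide 3 lay among the vehicle values, and the log2 fold change was -0.34 ± 0.23 (SE). *Lamc1*, the gamma chain of nearly all laminins, had 242.7, 246 and 282 CPM in niclosamide 1 to 3 and 308, 269 and 287 CPM in vehicle 1 to 3, a log2 fold change of -0.17 ± 0.14 (SE). *Lamb3*, the beta chain that pairs with the product of *Lama3*, repeated the pattern of that gene, with 10.8, 66.4 and 8.02 CPM in niclosamide 1 to 3 and 36.8, 24.7 and 20.3 CPM in vehicle 1 to 3. *Lamc3*, a gamma chain of restricted expression, was the least abundant member, at 1.22, 1.55 and 8.06 CPM in niclosamide 1 to 3 and 4.48, 0.906 and 0.817 CPM in vehicle 1 to 3. Its higher values came from niclosamide 3 and the pooled vehicle library. These levels were all above 0.109 CPM, the largest value that 3 counts, the limit allowed by a count of 0, had in any library. The limit covers counting error only.

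Of the linkers, *Nid1* (nidogen-1, the bridge between laminin and collagen IV) was the most abundant, at 317, 351 and 716 CPM in niclosamide 1 to 3 and 429, 520 and 498 CPM in vehicle 1 to 3. Niclosamide 1 and 2 lay below and niclosamide 3 above all vehicle libraries, with a log2 fold change of -0.06 ± 0.33 (SE). The related gene *Nid2* was 1 of 7 members with a log2 fold change above 0 (0.33 ± 0.19 SE), at 26.9, 30.1 and 37.4 CPM in niclosamide 1 to 3 and 27.8, 27.1 and 20.3 CPM in vehicle 1 to 3. *Agrn* encodes agrin, a proteoglycan that binds laminin and dystroglycan. It had 88.1, 214 and 116 CPM in niclosamide 1 to 3, against 205, 248 and 190 CPM in vehicle 1 to 3 (log2 fold change -0.62 ± 0.34 SE). As with *Lama5*, only niclosamide 2 reached the vehicle range.

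All 11 integrin alpha chains had a log2 fold change below 0, against 46.3% of all genes. Only *Itga8*, *Itga10*, *Itga5* and *Itga9* had an unadjusted edgeR p under 0.05, against 3.55% of all genes for lower levels. Without niclosamide 1 the log2 fold change was above 0 for *Itga2* (0.017), *Itga6* (0.14) and *Itgav* (0.099). Summed over the 11 chains, their level was 116, 196 and 128 RPKM in niclosamide 1 to 3, against 219, 216 and 214 RPKM in vehicle 1 to 3, without overlap. Within this sum *Itga8* averaged 11.3 RPKM with niclosamide and 37.0 RPKM with vehicle, and *Itga5* 31.1 and 53.0 RPKM. *Itgav* averaged 29.2 RPKM with niclosamide and 29.5 RPKM with vehicle. The summed level of the 3 laminin beta chains did not overlap either, at 44.6, 62.4 and 63.9 RPKM in niclosamide 1 to 3, against 70.9, 68.4 and 70.0 RPKM in vehicle 1 to 3. The sums of the other 2 classes overlapped, with 28.3 to 42.3 RPKM with niclosamide and 40.2 to 43.8 RPKM with vehicle for the laminin alpha chains, and 266 to 351 RPKM with niclosamide and 304 to 370 RPKM with vehicle for the integrin beta chains. Among the other collagen-binding chains, *Itga1*, found on smooth muscle, stromal and endothelial cells, had the highest level per length. It had 70.5, 112 and 86.7 CPM in niclosamide 1 to 3 and 96.4, 117 and 136 CPM in vehicle 1 to 3 (log2 fold change -0.38 ± 0.21 SE). *Itga11*, a fibroblast collagen receptor chain, averaged 7.96 ± 2.42 CPM with niclosamide and 12.0 ± 2.47 CPM with vehicle (SD, n = 3 each). *Itga2*, the epithelial and platelet collagen receptor chain, had 15.9, 60.4 and 9.92 CPM in niclosamide 1 to 3, against 30.5, 37.8 and 35.8 CPM in vehicle 1 to 3. It thus shared with *Lama3* and *Lamb3* a niclosamide 2 value above, and niclosamide 1 and 3 values below, every vehicle value.

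Of the laminin-binding chains, *Itga6*, which pairs with beta 1 or with beta 4, had the highest level per length, at 92.6, 220 and 168 CPM in niclosamide 1 to 3 and 154, 230 and 143 CPM in vehicle 1 to 3 (log2 fold change -0.13 ± 0.35 SE). *Itga3*, an epithelial laminin receptor chain, had 25.4, 72.9 and 25.4 CPM in niclosamide 1 to 3 and 80.0, 63.8 and 52.1 CPM in vehicle 1 to 3 (log2 fold change -0.66 ± 0.45 SE). *Itga7*, the laminin receptor chain of skeletal and smooth muscle, had 38.3, 11.1 and 24.1 CPM in niclosamide 1 to 3, against 31.8, 30.8 and 34.0 CPM in vehicle 1 to 3. It was the only member whose highest value came from niclosamide 1, and its lowest came from niclosamide 2, the libraries with the highest and the lowest sum of skeletal muscle markers. Yet niclosamide 3, with a sum of 11295 CPM, had less *Itga7* than vehicle 1, with a sum of 4431 CPM. The part of skeletal muscle in these values was not tested. *Itgav*, which pairs with several beta chains, had 186, 317 and 166 CPM in niclosamide 1 to 3 and 214, 242 and 220.8 CPM in vehicle 1 to 3. Its log2 fold change was -0.02 ± 0.26 (SE), with niclosamide 2 above and the other 2 niclosamide libraries below all vehicle values.

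*Itgb1*, the shared partner of most of these alpha chains, was the most abundant member per length, at 222 ± 32.3 RPKM with niclosamide and 261 ± 29.2 RPKM with vehicle (SD, n = 3 each). It had 901, 1179 and 955 CPM in niclosamide 1 to 3 and 1261, 1037 and 1274 CPM in vehicle 1 to 3, so the groups overlapped (log2 fold change -0.23 ± 0.19 SE). *Itgb5*, an RGD-binding partner of the alpha V chain, had the next highest level of the beta chains, at 50.2 ± 7.90 RPKM with niclosamide and 57.4 ± 7.60 RPKM with vehicle. *Itgb3*, the beta chain of the vitronectin and platelet fibrinogen receptors, averaged 61.2 ± 27.8 CPM with niclosamide and 72.1 ± 13.0 CPM with vehicle. *Itgb4*, the hemidesmosome chain, averaged 30.5 ± 17.3 CPM with niclosamide and 36.2 ± 7.70 CPM with vehicle, and *Itgb6*, the epithelial partner of alpha V that activates TGF-beta, 24.3 ± 15.6 CPM with niclosamide and 22.8 ± 4.63 CPM with vehicle. *Itgb8*, another TGF-beta-activating partner of alpha V, had 23.0, 31.7 and 51.9 CPM in niclosamide 1 to 3 and 27.6, 27.8 and 36.5 CPM in vehicle 1 to 3, highest in niclosamide 3. The log2 fold changes of these 6 beta chains lay between -0.25 (*Itgb4*) and 0.21 (*Itgb8*).

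As shares of the summed RPKM of a chain class, the makeup of the libraries differed without overlap between the groups at few chains. *Itgb1* made up 75.1% ± 1.94 of beta chain transcripts with niclosamide and 75.8% ± 1.75 with vehicle (SD, n = 3 each), a difference smaller than either SD. Among the 11 alpha chains the *Itga8* share was 4.33%, 9.82% and 7.62% in niclosamide 1 to 3, against 11.1%, 19.4% and 20.9% in vehicle 1 to 3. The *Itgav* share was 21.01%, 21.2% and 17.0% in niclosamide 1 to 3, against 12.8%, 14.6% and 13.5% in vehicle 1 to 3. These were the 2 alpha integrin shares without overlap, *Itga8* lower and *Itgav* higher, and the higher share of *Itgav* stands beside overlapping levels of the gene and a lower sum of the 11 chains. Among the laminin alpha chains, *Lama4* held 63.5%, 44.7% and 60.6% in niclosamide 1 to 3 and 49.99%, 45.1% and 54.2% in vehicle 1 to 3. The *Lama1* share, the only one of the 5 without overlap, was 1.65%, 3.09% and 1.33% in niclosamide 1 to 3, against 4.68%, 5.31% and 4.40% in vehicle 1 to 3. The shares were given no test.

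**Figure D4:**
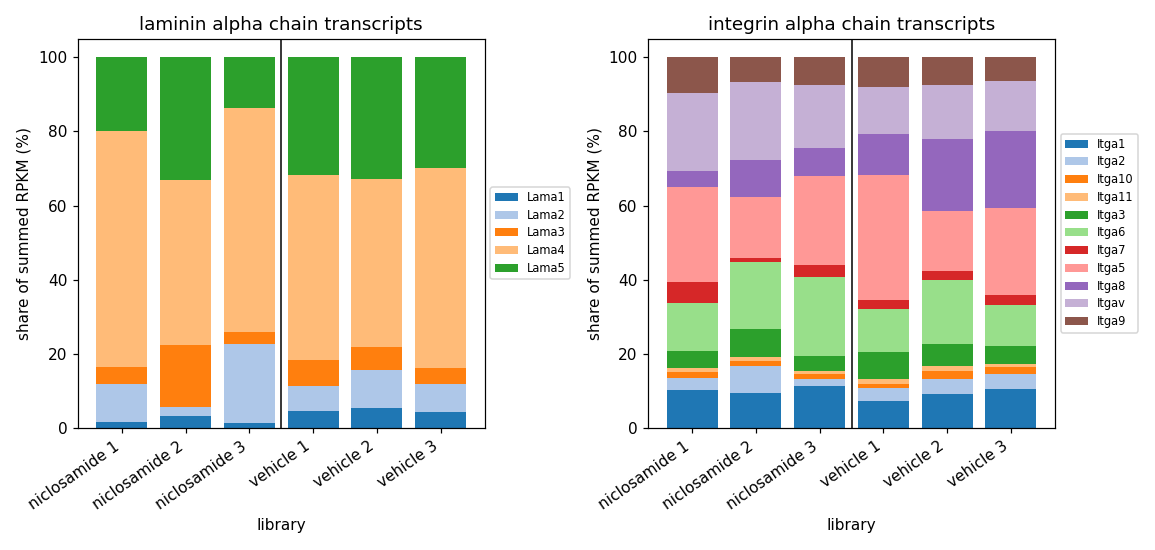
Stacked bars show, for each library (niclosamide left of the line, vehicle right), the share of summed RPKM held by each of the 5 laminin alpha chains (left panel) and 11 integrin alpha chains (right panel). In the left panel *Lama4* is the largest share in every library, *Lama3* is largest in niclosamide 2 (16.6%) and *Lama2* in niclosamide 3 (21.2%).

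The spread between niclosamide libraries was the other main feature of these genes. On the log2 scale the SD between libraries was larger in the niclosamide than in the vehicle group for 27 of 31 members (87.1%), against 67.7% of all genes. The median SD of the members was 0.61 with niclosamide and 0.23 with vehicle, and that of all genes 0.31 with niclosamide and 0.22 with vehicle. The pooled vehicle 1 library averages 4 mice, and its part in the smaller vehicle spread was not tested. Niclosamide 1 held the lowest value of 14 members and niclosamide 3 that of 11, whereas vehicle 1 and vehicle 2 held the lowest value of 0 members and vehicle 3 that of 2.

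Niclosamide 2 held the highest value of 7 members, *Lama3*, *Lamb3*, *Itga2*, *Itgav*, *Itgb3*, *Itgb4* and *Itgb6*. Of the 12 uterine epithelium markers 11 had a log2 fold change below 0 (median -0.22), against 46.3% of all genes. Their sum was also lowest in niclosamide 1 and 3, and was 6238 CPM in niclosamide 2 and 6883 CPM in vehicle 1. *Ltf* alone held 3306 CPM of the sum in niclosamide 2 and 4548 CPM in vehicle 1. *Epcam*, *Cdh1*, *Krt8*, *Krt19*, *Krt7*, *Cldn4*, *Cldn7*, *Esrp1* and *Elf3* were highest in niclosamide 2. *Krt18* and *Ltf* were highest in vehicle 1, and *Cldn3* in niclosamide 3. The part of the epithelium in these values was not tested. With niclosamide 2 left out, the log2 fold change of *Lamb3* was -1.55 (0.06 with all libraries) and that of *Lama3* -0.97 (0.37 with all libraries), each with an edgeR adjusted p above the threshold. Niclosamide 3 held the highest value of 6 members, *Lama2*, *Lama4*, *Lamc3*, *Nid1*, *Nid2* and *Itgb8*. It also had the highest levels of the stromal transcription factor genes *Hoxa11* (25.3, 46.5 and 217 CPM in niclosamide 1 to 3, against 65.5, 96.4 and 119 CPM in vehicle 1 to 3) and *Hand2* (10.3, 15.8 and 63.2 CPM in niclosamide 1 to 3, against 26.3, 29.0 and 25.2 CPM in vehicle 1 to 3). Over all 10 endometrial stroma markers the sums were 4209, 4816 and 5160 CPM in niclosamide 1 to 3 and 3980, 3952 and 4611 CPM in vehicle 1 to 3, with 5 of 10 below 0 and none at 0.

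**Figure D5:**
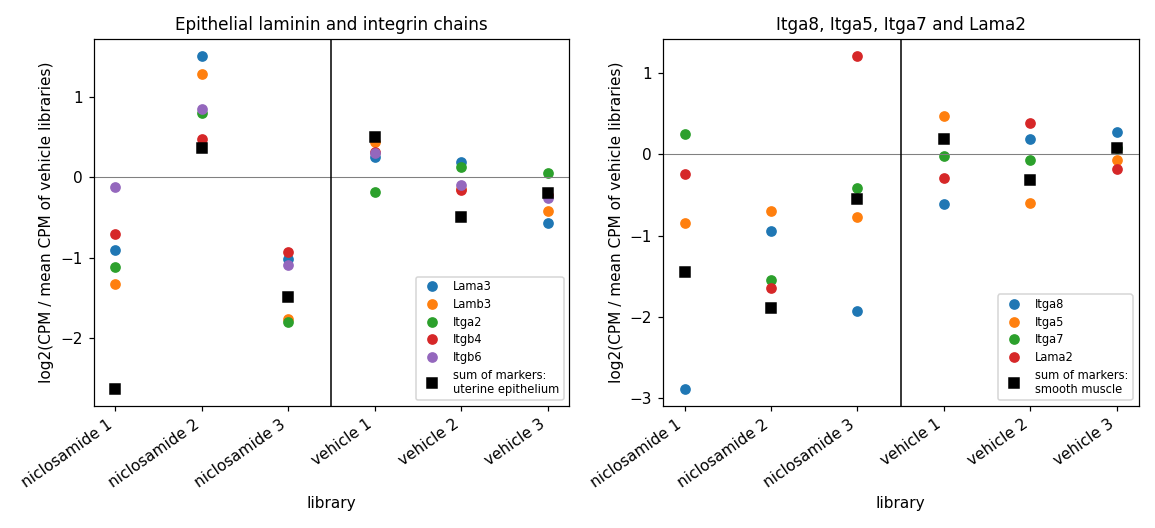
Coloured points are genes and black squares are sums of marker genes, each as the log2 ratio of its CPM to the mean of the vehicle libraries; niclosamide libraries lie left of the vertical line and vehicle libraries right. In the left panel the 5 epithelial chains are above 0 in niclosamide 2 and below 0 in niclosamide 1 and 3; in the right panel *Itga8* and *Itga5* are below 0 in all niclosamide libraries, while *Lama2* and *Itga7* are not.

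The partners of these genes were followed in lists of the same pathway, in which no gene passed the test over all genes. For comparison, 46.3% of all genes had a log2 fold change below 0. At an unadjusted p under 0.05, 3.55% of all genes were lower and 3.37% higher. In 6.37% of all genes every niclosamide library lay below every vehicle library. Integrin adaptors and adhesion kinases had 21 of 26 genes with a log2 fold change below 0 (median -0.34), with 10 lower and 0 higher at an unadjusted p under 0.05. *Vcl*, encoding vinculin, averaged 204 ± 19.0 CPM with niclosamide and 331 ± 23.7 CPM with vehicle (SD, n = 3 each), and *Flna*, encoding the actin cross-linker filamin A, 1064 ± 241.4 CPM with niclosamide and 2013 ± 140 CPM with vehicle. The talin-binding scaffold genes *Kank1* and *Kank2* had log2 fold changes of -0.56 ± 0.12 and -0.52 ± 0.13 (SE). The groups did not overlap in any of these 4 genes, whose edgeR adjusted p ran from 0.52 to 0.59, and the part of the lower smooth muscle markers in these values was not tested.

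Basement membrane collagens and other components had 14 of 17 genes below 0 (median -0.34), with 4 lower and 0 higher at an unadjusted p under 0.05. These 4 were low in level. *Fras1*, which encodes an epithelial basement membrane protein of the Fraser complex, averaged 3.98 ± 0.822 CPM with niclosamide and 13.9 ± 6.34 CPM with vehicle (SD, n = 3 each; log2 fold change -1.80 ± 0.37 SE; edgeR adjusted p = 0.52). Its complex partner *Frem2* averaged 3.60 ± 1.88 CPM with niclosamide and 9.71 ± 3.18 CPM with vehicle. *Ntn4*, a laminin-related netrin that disrupts laminin networks, had a log2 fold change of -0.72 ± 0.24 (SE), and *Papln*, encoding papilin, one of -1.09 ± 0.39 (SE). Other laminin receptors and partners were divided, 7 of 13 below 0 (median -0.05). *Bcam*, encoding a receptor for the *Lama5* chain, averaged 90.1 ± 37.5 CPM with niclosamide and 164 ± 24.8 CPM with vehicle, and *Mcam*, a receptor on vessels and smooth muscle that binds the *Lama4* chain, 109 ± 42.8 CPM with niclosamide and 201 ± 21.3 CPM with vehicle. These 2 had an unadjusted p under 0.05 (edgeR adjusted p 0.68 and 0.64).

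Matrix ligands of integrins had 12 of 15 genes below 0 (median -0.33) and none with an unadjusted p under 0.05. By the mean over all 6 libraries the 2 most abundant per length were *Col3a1*, at 965 RPKM with niclosamide and 1047 RPKM with vehicle, and *Col1a2*, at 686 RPKM with niclosamide and 904 RPKM with vehicle. *Spp1*, encoding the RGD protein osteopontin and named after its values were seen, was above *Col1a2* in the niclosamide group, at 710 RPKM with niclosamide and 616 RPKM with vehicle (log2 fold change 0.20 ± 0.25 SE). Hemidesmosome partners of *Itgb4* showed little: *Plec* and *Dst*, encoding the linkers plectin and dystonin, had log2 fold changes of -0.02 ± 0.26 and -0.21 ± 0.30 (SE), and *Krt5* was too low to be tested, at no more than 0.157 CPM in any library. Leukocyte integrins ran the other way, with 9 of 9 above 0 (median 0.40) and 3 higher at an unadjusted p under 0.05. *Itgal*, the LFA-1 alpha chain, averaged 126 ± 43.1 CPM with niclosamide and 70.4 ± 7.85 CPM with vehicle, *Itga4* 167 ± 54.6 CPM with niclosamide and 97.2 ± 18.9 CPM with vehicle, and *Itgb7* 76.8 ± 11.6 CPM with niclosamide and 51.7 ± 8.92 CPM with vehicle (SD, n = 3 each; edgeR adjusted p 0.62 to 0.65). Of the 9 genes only *Itgb7* had every niclosamide library above every vehicle library, against 5.9% of all genes. The groups of *Itgal* and *Itga4* overlapped. All 8 leukocyte markers were above 0 as well, with sums of 2530, 2119 and 1459 CPM in niclosamide 1 to 3 and 1860, 1240 and 1457 CPM in vehicle 1 to 3.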

How the data were processed

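The deposited values are raw read counts per gene symbol for 6 libraries. They were made by the authors with featureCounts v1.4.6-p4 in the reverse-stranded setting, from STAR alignments and the exons of a GRCm38.p3 annotation, per the file headers, with no option to count reads of several places or several genes; deposited exon lengths in bases come from the same annotation. STAR 2.4.2a, Trimmomatic 0.33, bcl2fastq 1.8.4 and edgeR 3.12.0 are named in the submitters' processing notes. The counts do not separate donor from recipient cells.

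Here edgeR 4.0.16 in R 4.3.3 kept genes by filterByExpr (minimum count 10, minimum total 15), scaled libraries by TMM and fitted a robust quasi-likelihood model with the group as its only term, with Benjamini-Hochberg adjustment over all genes and a threshold of 0.05. Each SE was obtained by dividing the size of the log2 fold change by the root of F. CPM and RPKM use the TMM-scaled sizes, and SDs on the log2 scale were taken after adding 0.1 CPM. Alternatives were RLE and upper-quartile scaling, DESeq2 1.42.0, limma-voom (limma 3.58.1), no filter, a filter at 1 CPM in 3 libraries, a threshold of 0.10, a block for the replicate number, and the omission of each library in turn. The procedure was run on simulated data, with a pass rule only for a fixed spread that was not taken from these libraries. How many true differences it would find at the spread of these libraries is not given here. The members and gene lists were chosen with earlier results of these data known. All 31 members are named; values per library are given for members with an unadjusted p under 0.05, groups apart or the highest level of their role, and for others chosen after their values were seen. From each other list the text names up to 4 genes with the smallest unadjusted p under 0.05, or else the 2 of highest level. *Tns2* and *Adgre1* were read under their older symbols *Tenc1* and *Emr1*.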

Additional observations from a re-analysis of the deposited data

How the results depend on the processing

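The 6 members with an unadjusted p under 0.05 numbered the same with RLE or upper-quartile scaling, limma-voom, no filter and the stricter filter. In these settings 4.96% to 7.16% of all genes had such a p. The 7 whose groups were apart also numbered the same with these scalings and filters, against 9.45% to 12.5% of all genes. That count uses CPM alone, so the choice of limma-voom could not change it. DESeq2 called 195 genes and 1 member (*Itga10*) and edgeR with no filter 1 gene and 0 members. The replicate block gave 0 calls, 8 members with an unadjusted p under 0.05 (6.57% of all genes) and a member median of -0.37. Deviations from the group means correlated at -0.0846, -0.0875 and 0.266 between same-numbered libraries, and at -0.357 to 0.36 over all pairings. With 3 libraries per group these values cannot settle whether the numbers pair the libraries. With each library left out in turn, edgeR called 0 genes each time, and members with an unadjusted p under 0.05 numbered 4 to 16, members with groups apart 8 to 19, members below 0 19 to 26, and the member median ran from -0.55 to -0.15. The 16 and 19 came without niclosamide 2, against 10.1% and 27.1% of all genes. Without niclosamide 3 the counts were 6 (10.8% of all genes) and 11 (27.3%), without niclosamide 1 6 (5.61%) and 9 (21.2%), without vehicle 1 4 (5.38%) and 9 (20.3%), without vehicle 2 4 (4.55%) and 9 (19.2%), and without vehicle 3 5 (3.86%) and 8 (18.1%). *Hspg2* and *Itga10* had an unadjusted p under 0.05 under all 13 alternatives that gave one.

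The sign of some fold changes turned. With limma-voom the log2 fold change was -0.21 for *Lama2*, -0.075 for *Lama3*, -0.53 for *Lamb3* and -0.091 for *Itgb6*, and with the replicate block -0.16, -0.11, -0.62 and -0.11 for these genes in the same order; the cause was not tested. Leaving out a library gave ranges of -0.77 to 0.65 for *Lama2*, -0.97 to 0.78 for *Lama3*, -0.16 to 0.00090 for *Lama4*, -1.55 to 0.52 for *Lamb3*, -0.56 to 2.06 for *Lamc3*, -0.52 to 0.14 for *Nid1*, -1.44 to 0.16 for *Itga2*, -0.44 to 0.14 for *Itga6*, -0.37 to 0.17 for *Itgav*, -0.83 to 0.018 for *Itgb4*, -0.55 to 0.46 for *Itgb6* and -0.15 to 0.44 for *Itgb8*. Those of the 7 members whose groups were apart kept their sign, as in *Itga8* (-2.34 to -1.35) and *Hspg2* (-0.63 to -0.47). Whether depth limits these results was not tested.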
